A study of Danio rerio with 6 samples.

Results

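The integrin subunits of zebrafish skin cells were followed across wild-type melanophores and 2 groups labelled melanoma. Members were all Ensembl gene identifiers whose gene name begins like an integrin alpha or beta subunit (ITGA or ITGB followed by a number or by the letters of the leukocyte and alpha V chains), and the names of proteins that bind an integrin tail were left out. The pattern found 37 names, of which 2 were binding proteins, so 35 members remained of 32520 identifiers in the count tables. They comprised 22 alpha chains, 12 beta chains and ITGBL1, whose name the pattern takes although it is not a subunit. They lie on 18 chromosomes, and 30 distinct symbols are used, because some zebrafish copies carry the same human symbol and are told apart below by chromosome and identifier.

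Integrins are adhesion receptors of the cell surface made of an alpha and a beta chain, and the pair decides which ligand is held. Pairs with alpha 1, alpha 2, alpha 10 or alpha 11 bind collagens, pairs with alpha 3, alpha 6 or beta 4 bind laminins of the basement membrane, and a further class, with alpha 5, alpha 8, alpha V or alpha IIb, reads the RGD motif of fibronectin, vitronectin and related glycoproteins. Alpha 4 and alpha 9 bind other sites on fibronectin, tenascin and VCAM1, the chains of leukocytes bind other cells, and beta 1 is the shared partner of many alpha chains. Both chains carry N-glycans, and mgat4b encodes an enzyme that adds a branch to such glycans. RNA counts do not measure glycans, so only the transcripts of the chains are described.

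RNA sequencing was done on 6 libraries from the skin of 1-month-old zebrafish, 2 in each of 3 groups. The paper's methods speak of skin and of melanoma biopsies, so the tissue taken may differ between groups. The wild-type melanophore group came from wild-type fish. Both groups labelled melanoma were made in the Assam wild-type strain. Their fish carried the MAZERATI plasmids, in which the melanocyte promoter mitfa drives BRAF V600E and Cas9 against p53 and the pten genes. Only in the mgat4b mutant group was mgat4b also targeted in melanocytes, by mitfa-driven Cas9. The paper describes the control fish as carrying a nontargeting guide RNA, and its figure labels them mitfa:EV. The paper reports tumors in control fish, while mgat4b mutant fish showed aggregated melanocytes but formed no melanoma. Mutant melanoma is therefore used below as a sample label only. The plasmids were injected into embryos, so the fish are mosaics, and the melanoma groups hold transformed cells together with other melanocytes. The series' description speaks of skin from 5 fish, and how many fish went into each library was not given, so p-values measure the spread between these libraries, which may be partly technical.

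Total counts ranged from 3538922 to 8446997 per library, of which 10179 to 25853 fell on the members. Transcripts of the targeted gene do not check the labels: MGAT4B (ENSDARG00000004115) had 102 and 107 counts in the control and 94 and 52 in the mutant libraries, a log2 fold change of 0.17 ± 0.28 (SE, adjusted p = 0.717). The small RNA rn7sl1 took 7.65% of the counts in both wild-type libraries, 37.3% to 37.4% in control and 26.2% to 30.7% in mutant libraries. Cells were enriched on a density gradient and not sorted, and the pigment cell markers were low in the libraries labelled melanophores. The 17 melanophore genes summed to 41.2 to 47.8 CPM (counts scaled to the size of their library) there, against 250 to 259 CPM in control and 243 to 264 CPM in mutant melanoma, and DCT, a pigment enzyme, was at 0.313 CPM or less in the wild-type libraries. The 22 markers of epidermis summed to 14645 to 15127, 9391 to 9645 and 12339 to 12800 CPM in the same order of groups. Their median was 246, 139 and 114 CPM, so by the median marker the mutant group was lowest, unlike by the sum. In such mixed samples fewer cells of a type and less RNA per cell cannot be told apart.

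Between groups, the members were called higher or lower where edgeR's quasi-likelihood test gave a Benjamini-Hochberg adjusted p under 0.05 over all genes tested and the change was at least 1 on the log2 scale. In control melanoma against wild-type melanophores 12 members rose and 4 fell of 32 tested, while of all genes tested 31.9% were called, 19.9% higher and 12.1% lower. Against the same wild-type libraries 5 members rose and 4 fell in mgat4b mutant melanoma of 33 tested, against 19.3% of all genes, 9.72% higher and 9.57% lower. Of 32 tested in mutant against control melanoma, 4 rose and 7 fell, against 12.5% of all genes, 5.86% higher and 6.68% lower. Median log2 fold changes of the members were 0.35, 0.39 and -0.06 in these comparisons, and those of all genes tested were -0.01, -0.03 and -0.02.

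In all, 21 members were called in at least 1 comparison and 14 in none, of which 2 were tested in no comparison. The share of all genes called in at least 1 comparison was not computed, so these counts have no background beside them. ITGA10, ITGB8 and itgae.1 were called in all 3. The first 2 comparisons share the wild-type libraries, and mutant against control uses the control and mutant libraries again. The values are therefore given side by side and are not independent. A rise in control against wild-type and a fall in mutant against control rest in part on the same control libraries. The mutant libraries differed more from each other than other replicates did, with a chi-square per gene of 10.2 against 2.31 for wild-type and 2.52 for control. That value scales libraries by their total counts only. Differences in composition therefore enter it, such as rn7sl1 at 30.7% and 26.2% of the counts in the mutant libraries. Without mutant replicate 1 the number of members higher in mutant melanoma than in melanophores was 9 instead of 5. CPM per kilobase of gene length is used wherever genes are compared with each other, and CPM where 1 gene is compared across libraries.

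**Figure D1:**
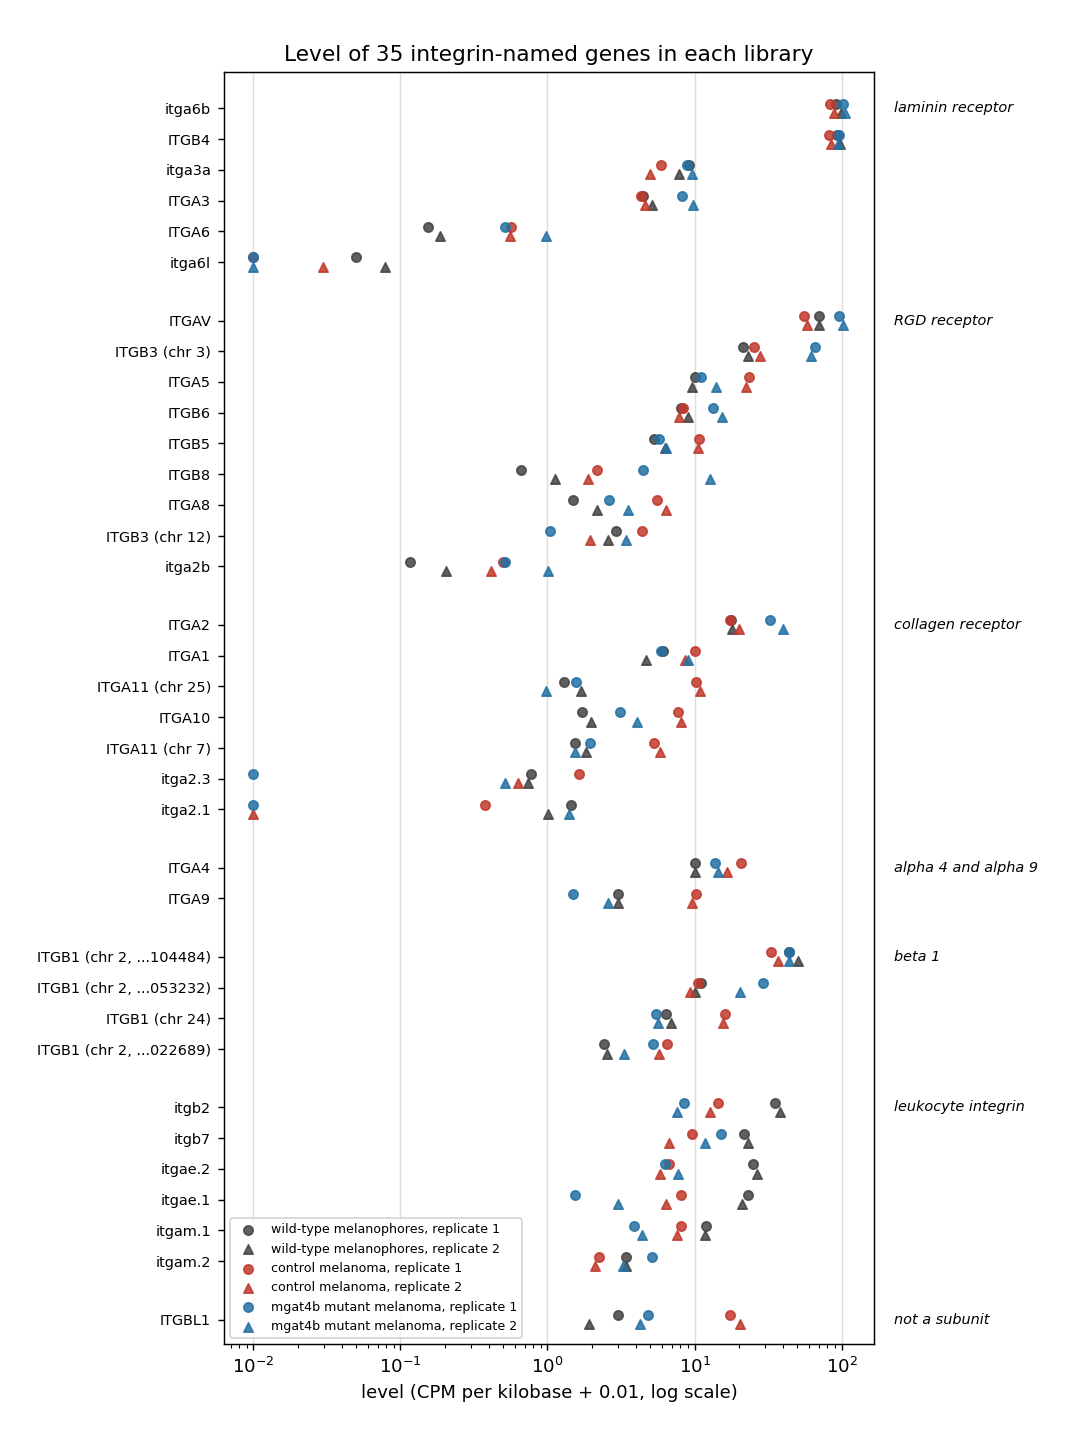
Level of every member in each library, in CPM per kilobase plus 0.01 on a log axis, with members grouped by ligand class and ordered by mean level, circles for replicate 1 and triangles for replicate 2 of wild-type (grey), control (red) and mutant (blue) libraries. The laminin chains itga6b and ITGB4 lie at 81.9 CPM per kilobase or above in all 6 libraries, and the leukocyte chains itgb2 and itgae.2 are higher in the grey than in the red and blue points.

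Summed over the members, the level was 549 and 573 CPM per kilobase in wild-type, 528 and 530 in control and 605 and 631 in mutant libraries. Beside alpha chains, the laminin class counts ITGB4, the RGD class ITGB3, ITGB5, ITGB6 and ITGB8, and the leukocyte class itgb2 and itgb7. The collagen class and that of alpha 4 and alpha 9 hold alpha chains only, with beta 1 apart. Shares of classes built differently are therefore not directly comparable. By this grouping the laminin receptors had the largest share in the wild-type and control groups. They took 36.5% ± 0.40 (SD, n = 2) in melanophores and 33.9% ± 0.95 in control melanoma. In mutant melanoma the laminin receptors took 35.2% ± 0.50 and the RGD receptors 34.1% ± 1.31, and these ranges overlapped. RGD receptors took 21.7% ± 0.089 in melanophores and 25.8% ± 0.14 in control melanoma, so their share did not overlap between any of the groups. Chains of leukocytes went from 21.8% ± 0.25 in melanophores to 8.55% ± 1.08 in control and 6.32% ± 0.49 in mutant melanoma, again with no overlap. Collagen receptors took 5.37% ± 0.27, 10.1% ± 0.15 and 8.28% ± 1.17, and beta 1 took 11.9% ± 0.44, 12.6% ± 0.14 and 12.7% ± 1.54, the mutant libraries overlapping both other groups. Such shares were given no test, because with 2 libraries a group the smallest two-sided p of an exact permutation test is 0.333. Alpha chains exceeded beta chains in every library, and the ratio of their sums lay between 1.04 and 1.31.

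**Figure D2:**
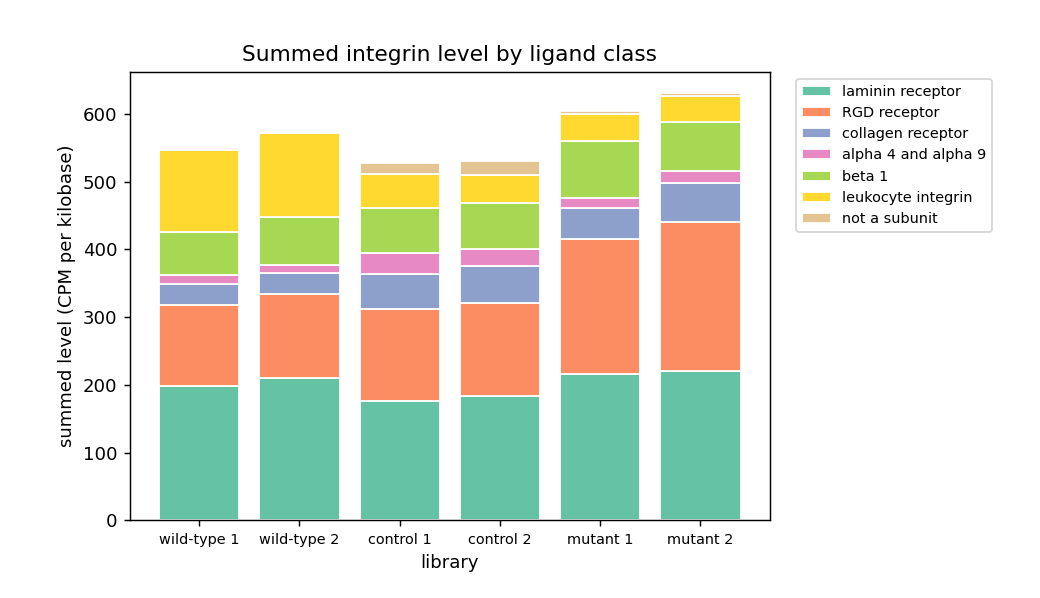
Summed level of the members in each library, in CPM per kilobase, stacked by ligand class. The RGD segment is 119.6 and 124 in the wild-type, 136 and 138 in the control and 200.4 and 221 in the mutant libraries, and the leukocyte segment is 121 and 124, 49.2 and 41.3, and 40.3 and 37.7.

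Laminin receptors held the most abundant pair, and few of them were called. Of 5 tested in each comparison, 1 rose in control and 0 in mutant melanoma against wild-type, and 1 rose in mutant against control. The shares called were 20%, 0% and 20%, against 31.9%, 19.3% and 12.5% of all genes. In mutant against control all 5 stood above 0, with a median of 0.45 on the log2 scale. In mammals alpha 6 and beta 4 form the integrin of hemidesmosomes, which fix basal keratinocytes to the basement membrane. ITGB4 (ENSDARG00000028507) was at 862 and 903 CPM in wild-type, 757 and 777 in control and 889 and 879 in mutant libraries. For itga6b (ENSDARG00000069946) the values were 437 and 475, 395 and 425, and 483 and 499 CPM. Neither was called in any comparison, and their log2 fold changes lay between -0.09 and 0.30, the control libraries being the lowest of the 6 for both genes. For ITGB4 none of the 3 adjusted p-values was under 0.05, and for itga6b only mutant against control was (adjusted p = 0.0489).

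ITGA6, a further alpha 6 copy on chromosome 9, contributed under 1% of the alpha 6 level. It was at 0.603 and 0.731 CPM in wild-type, 2.31 and 2.27 in control and 2.11 and 4.05 in mutant libraries, with no overlap between wild-type and either melanoma. The rise in control melanoma was 1.87 ± 0.59 (SE, log2, adjusted p = 0.00639), and the call was lost with DESeq2 (adjusted p = 0.053), with all 6 libraries in one fit (adjusted p = 0.0751) and without wild-type replicate 1 (adjusted p = 0.0658). Mutant against wild-type the value was 2.24 ± 0.77 (adjusted p = 0.0724), and it was called only with all 6 libraries in one fit (adjusted p = 0.0341) and without mutant replicate 1 (adjusted p = 0.00115).

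The alpha 3 chains pair with beta 1 in keratinocytes and other epithelia. ITGA3 (ENSDARG00000012824) was at 15.8 and 18.2 CPM in wild-type, 15.2 and 16.2 in control and 29.1 and 34.5 in mutant libraries, so the mutant libraries stood above the other 4. It rose by 1.05 ± 0.23 (log2) in mutant against control melanoma (adjusted p = 0.0134). That call is close to both thresholds. It was lost without control replicate 1 (adjusted p = 0.166), without control replicate 2 (adjusted p = 0.124), without mutant replicate 2 (log2 fold change 0.92) and with at least 10 counts required in every library (0.98). Against wild-type melanophores the change was 0.98 ± 0.21 (adjusted p = 0.0151), under the minimum fold, and 1.11 without mutant replicate 1, where it was called. The copy itga3a was uncalled throughout, with values from 19.3 to 37.4 CPM. It was 0.80 ± 0.21 in mutant against control (adjusted p = 0.0271) and -0.53 ± 0.14 in control against wild-type (adjusted p = 0.00163). Both changes were under the minimum fold, with no overlap of the groups compared, while the mutant and wild-type libraries overlapped.

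The RGD receptors divided within mutant melanoma. Of 9 chains, ITGB8 and ITGB3 on chromosome 3 rose against control, and none fell by the fold minimum. That is 22.2% called, against 12.5% of all genes. Alpha V and most of its beta partners stood higher in mutant than in control libraries, whereas the alpha chains 5 and 8 and the chain beta 5 stood lower.

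Alpha V (ITGAV, ENSDARG00000006314) pairs with several beta chains and was the third most abundant member. Its level was 350.3 and 352 CPM in wild-type, 278 and 292 in control and 480.5 and 514 in mutant libraries, with no overlap between any of the groups. In mutant melanoma it stood 0.84 ± 0.09 above control (adjusted p = 4.4e-04) and 0.58 ± 0.08 above wild-type on the log2 scale (adjusted p = 0.00309), both under the minimum fold.

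Beta 3, which in mammals pairs with alpha V in many cells and with alpha IIb in platelets, has 2 copies here. The copy on chromosome 3 (ENSDARG00000056767, 19621034 to 19649535 on GRCz11) was at 53.7 and 58.2 CPM in wild-type, 64.7 and 70.7 in control and 167 and 157 in mutant libraries. It rose by 1.29 ± 0.12 (log2) in mutant against control melanoma (adjusted p = 1.69e-04) and by 1.62 ± 0.11 against wild-type (adjusted p = 1.31e-04), both calls being kept with every library left out in turn. In control melanoma against wild-type it was 0.39 ± 0.10 (adjusted p = 6.83e-04), below the fold minimum.

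This copy held 85.4% to 98.5% of the summed beta 3 level, and the copy on chromosome 12 (ENSDARG00000045070) was not called in any comparison and ranged from 3.16 to 13.4 CPM. Without mutant replicate 2 the chromosome 12 copy of ITGB3 was called lower against wild-type (-1.32, adjusted p = 0.00426) and against control (-1.57, adjusted p = 0.00282). The platelet partner itga2b was scarce, at 0.402 to 3.76 CPM over all libraries. It passed the filter on low counts in the comparisons that involve mutant melanoma, where it was uncalled. In mutant against wild-type itga2b was 2.35 ± 0.82 (adjusted p = 0.0762), called with all 6 libraries in one fit (adjusted p = 0.0391) and without mutant replicate 1 (2.80, adjusted p = 0.00118). The 9 thrombocyte markers summed to 71.5 to 78.1 CPM in wild-type, 49.5 to 55.3 in control and 51.0 to 63.7 in mutant libraries. The mutant and control sums overlapped, and the wild-type sums were the highest. In mutant against control melanoma 1 of the 6 markers tested was called higher and 1 lower, 33.3% against 12.5% of all genes. The part of thrombocytes in the values of ITGB3 and itga2b was not tested.

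Beta 8, which in mammals joins alpha V in a receptor that activates latent TGF-beta, gave the largest rise among the members in mutant melanoma against wild-type. ITGB8 (ENSDARG00000028222, chromosome 19, 2275019 to 2307722 on GRCz11) was at 1.71 and 2.92 CPM in wild-type, 5.69 and 4.98 in control and 11.8 and 33.6 in mutant libraries. The 3 groups did not overlap, but the mutant libraries were far from each other. The changes were 3.35 ± 0.58 (log2) in mutant against wild-type (adjusted p = 0.00684), 2.11 ± 0.49 in mutant against control (adjusted p = 0.0179) and 1.32 ± 0.39 in control against wild-type (adjusted p = 0.00364). With no filter on low counts the call against control was lost (adjusted p = 0.0891). The rise in control melanoma was lost with all 6 libraries in one fit (adjusted p = 0.0933) and without wild-type replicate 1 (0.98, adjusted p = 0.0849).

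Beta 6, an epithelial partner of alpha V in mammals, was at 41.7 and 46.8, 42.8 and 40.2, and 68.9 and 79.0 CPM in the same order. In mutant melanoma ITGB6 stood 0.87 ± 0.15 above control (adjusted p = 0.0045), under the fold minimum. ITGB5, the remaining alpha V partner in the class, was at 19.1 and 22.8 CPM in wild-type, 38.6 and 38.4 in control and 20.7 and 23.2 in mutant libraries. Its pattern was thus the reverse, with control above both other groups, although at 1.00 ± 0.14 in control against wild-type (adjusted p = 1.73e-08) it lay just under the minimum fold before rounding. ITGB5 was called there with DESeq2 size factors (1.01), with at least 10 counts in every library (1.02), without wild-type replicate 2 (1.13) and without control replicate 2 (1.00).

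Alpha 5, the fibronectin receptor chain, and alpha 8, which in mammals binds nephronectin, were also highest in control melanoma. ITGA5 (ENSDARG00000006353) was at 57.8 and 55.0 CPM in wild-type, 135 and 129 in control and 63.9 and 81.1 in mutant libraries. It rose by 1.35 ± 0.08 (log2) in control against wild-type (adjusted p = 3.98e-19), and in mutant against control it was -0.84 ± 0.14 (adjusted p = 0.00451), a change called only without mutant replicate 2 (-1.02). ITGA8 (ENSDARG00000078717) was at 6.73 and 9.82, 25.4 and 29.1, and 11.8 and 15.9 CPM, and rose by 1.84 ± 0.19 in control against wild-type (adjusted p = 8.11e-12). In mutant against control ITGA8 was -0.95 ± 0.26 (adjusted p = 0.0368), which was called without mutant replicate 2 (-1.18) and with at least 10 counts in every library (-1.02), and against wild-type it was called only without mutant replicate 1 (1.04).

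**Figure D3:**
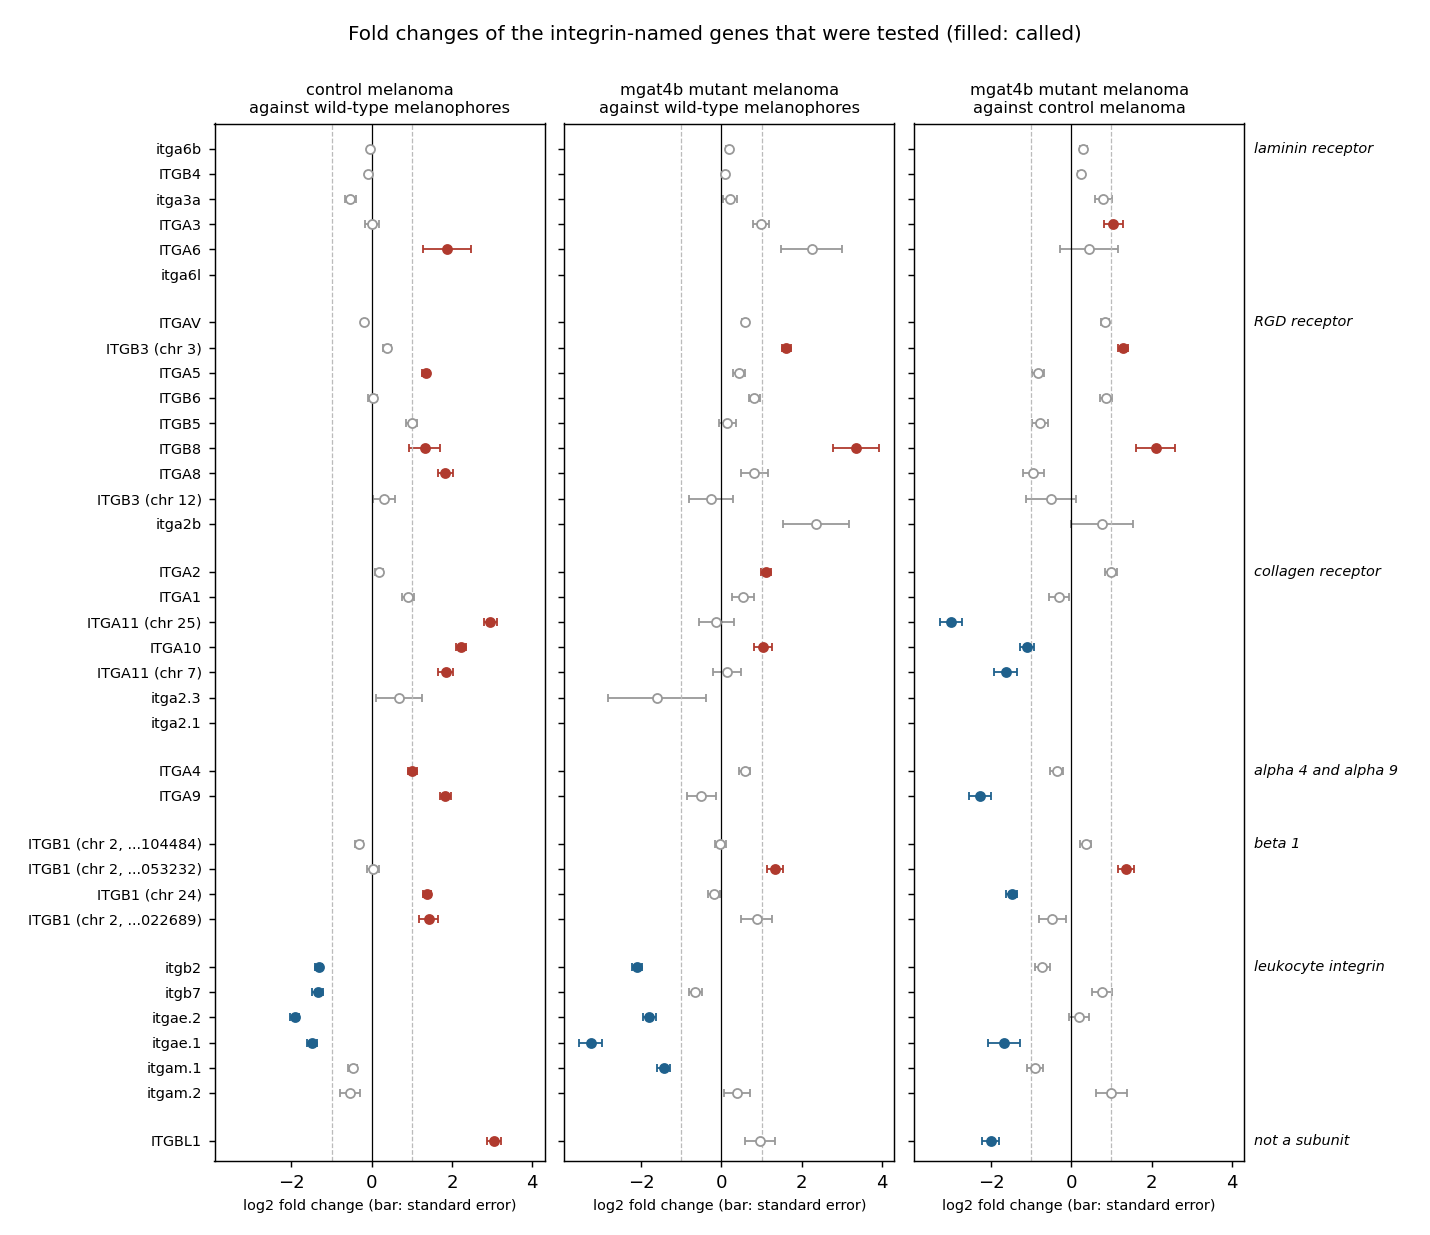
Log2 fold changes of the members tested in the 3 comparisons, with bars of 1 standard error, filled points for members called and dashed lines at the minimum fold. In mutant against control melanoma ITGB8 (2.11), ITGB1 as ENSDARG00000053232 (1.37), ITGB3 on chromosome 3 (1.29) and ITGA3 (1.05) lie to the right as filled points, and ITGA11 on chromosome 25 lies farthest to the left (-3.00).

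Collagen receptors differed between the melanomas. Of 6 tested in control against wild-type 3 rose and none fell, which is 50% called against 31.9% of all genes. The median was 1.38 on the log2 scale. Of 5 tested in mutant against control the same 3 genes fell, both copies of ITGA11 and ITGA10. The share called was 60% against 12.5% of all genes, and the median was -1.11.

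Alpha 11 is a receptor for fibrillar collagen that mammalian fibroblasts carry. ITGA11 on chromosome 25 (ENSDARG00000007950, 1343161 to 1426876 on GRCz11) was at 5.73 and 7.52 CPM in wild-type, 45.8 and 49.1 in control and 6.96 and 4.34 in mutant libraries. Control melanoma stood alone, and the wild-type and mutant ranges overlapped. The rise against wild-type was 2.96 ± 0.16 (adjusted p = 1.89e-21) and it fell in mutant against control with a log2 fold change of -3.00 (SE 0.27, adjusted p = 1.5e-04), the largest fall of a member in that comparison. Mutant against wild-type the value was -0.13 ± 0.44 (adjusted p = 0.855).

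The copy on chromosome 7 (ENSDARG00000036086) was also highest in control, at 7.33 and 8.67, 25.2 and 27.8, and 9.28 and 7.24 CPM. ITGA11 on chromosome 7 rose by 1.84 ± 0.19 in control against wild-type (adjusted p = 4.46e-12) and fell by 1.63 (SE 0.28, adjusted p = 0.00458) in mutant against control, a call lost without control replicate 2 (adjusted p = 0.06). The chromosome 25 copy made up 45.3% and 48.0% of the summed alpha 11 level in wild-type, 65.9% and 65.2% in control and 44.3% and 38.9% in mutant libraries.

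ITGA10 (ENSDARG00000002507), the alpha 10 chain known from cartilage in mammals, was at 14.8 and 17.0 CPM in wild-type, 66.6 and 69.9 in control and 27.0 and 35.0 in mutant libraries. The 3 groups did not overlap. It rose by 2.22 ± 0.12 (adjusted p = 2.87e-21) in control melanoma, and in mutant against control it fell by 1.11 (SE 0.18, adjusted p = 0.00303), a call lost without mutant replicate 1 (-0.93). The rise of 1.04 ± 0.23 in mutant against wild-type (adjusted p = 0.0166) was lost without wild-type replicate 1 (adjusted p = 0.168), without wild-type replicate 2 (adjusted p = 0.0762), without mutant replicate 2 (0.85), with no filter on low counts (0.96) and with at least 10 counts in every library (0.98). ITGA10 overlaps POLR3C on the opposite strand, whose counts were 20 to 71 per library, and whether counting used the strand was not stated in the sources used here.

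Alpha 2, which epithelial cells and platelets carry in mammals, differed from the rest of the class. ITGA2 (ENSDARG00000062974) was at 63.8 and 64.1 CPM in wild-type, 62.9 and 71.9 in control and 117 and 144 in mutant libraries. It rose by 1.11 ± 0.13 in mutant against wild-type (adjusted p = 0.00158), a call lost without mutant replicate 2 (0.96). Against control it was 0.99 ± 0.15 (adjusted p = 0.0021), just under the minimum fold, and was called without control replicate 2 (1.09) and without mutant replicate 1 (1.13). Alpha 1 (ITGA1, ENSDARG00000074316) was at 23.0 and 17.5, 37.8 and 32.5, and 22.1 and 33.9 CPM, and was called in no comparison. Its 0.91 ± 0.15 in control against wild-type (adjusted p = 5.79e-07) passed the minimum fold without wild-type replicate 1 (1.12) or without control replicate 2 (1.01).

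Genes of fibroblasts and scales were also highest in control melanoma, as ITGA10 and ITGA11 were. The 19 markers summed to 3932 to 4448 CPM in wild-type, 60777 to 62257 in control and 10847 to 11334 in mutant libraries. Most of the control sum was type I collagen, with col1a1a, COL1A1 and COL1A2 at means of 19200, 20140 and 19535 CPM. The median marker was at only 18.6, 36.3 and 24.1 CPM in wild-type, control and mutant melanoma. Of the 19, 14 were called higher in control against wild-type and 12 lower in mutant against control, and none was at 0 in both libraries of a group. These shares were 73.7% and 63.2%, against 31.9% and 12.5% of all genes. Muscle markers summed to 112 to 117, 2741 to 2846 and 1474 to 1502 CPM, and endothelial markers to 68.3 to 73.7, 153 to 164 and 80.2 to 97.2 CPM. Their part in the values of the collagen, RGD and alpha 9 receptors was not tested.

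Alpha 9 and alpha 4 both rose in control melanoma. Alpha 9 binds tenascin and VCAM1 among others, and ITGA9 (ENSDARG00000032435) was at 13.2 and 13.2 CPM in wild-type, 44.9 and 41.8 in control and 6.54 and 11.3 in mutant libraries. Mutant libraries were the lowest and control libraries the highest, with no overlap. It rose by 1.84 ± 0.14 in control against wild-type (adjusted p = 8.85e-16) and fell by 2.27 (SE 0.28, adjusted p = 8.22e-04) in mutant against control, both calls being kept with every library left out in turn. Mutant against wild-type it was -0.50 ± 0.35 (adjusted p = 0.335).

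Alpha 4, a receptor for VCAM1 and fibronectin known from leukocytes, was measured as ITGA4 (ENSDARG00000103056). Its levels were 34.1 and 33.8 CPM in wild-type, 70.4 and 56.2 in control and 46.6 and 49.2 in mutant libraries. The rise of 1.01 ± 0.11 in control against wild-type (adjusted p = 8.6e-11) lay at the fold minimum, and fell below it with DESeq2 (0.97), with no filter on low counts (0.95), with all 6 libraries in one fit (0.94) and without control replicate 1 (0.84). In mutant against control ITGA4 was -0.37 ± 0.16 (adjusted p = 0.162).

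Beta 1 copies changed in opposite directions between the melanomas. The 4 identifiers under the symbol ITGB1 summed to 63.9 and 70.2 CPM per kilobase in wild-type, 66.3 and 67.6 in control and 83.6 and 73.4 in mutant libraries. One lies on chromosome 24 (1110138 to 1151483, GRCz11) and 3 lie near each other on chromosome 2 (43577294 to 43583896, 43619555 to 43635777 and 43638983 to 43653328), and reads shared by similar copies may have been divided by the counting, so each value is uncertain to that extent.

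ITGB1 on chromosome 24 (ENSDARG00000071863) was at 38.2 and 41.9 CPM in wild-type, 96.9 and 93.9 in control and 32.7 and 33.9 in mutant libraries. It rose by 1.37 ± 0.10 in control against wild-type (adjusted p = 2.71e-17) and fell by 1.48 (SE 0.14, adjusted p = 2.04e-04) in mutant against control. Its share of the beta 1 level was 9.94% and 9.92% in wild-type, 24.3% and 23.1% in control and 6.498% and 7.67% in mutant libraries.

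On chromosome 2, ENSDARG00000053232 went the other way, at 27.0 and 24.6 CPM in wild-type, 25.8 and 22.8 in control and 71.7 and 50.1 in mutant libraries. It rose by 1.37 ± 0.21 in mutant against control (adjusted p = 0.00234) and by 1.33 ± 0.20 against wild-type (adjusted p = 0.00381), and its control and wild-type libraries overlapped. Its share was 34.98% and 27.8% in mutant libraries and 13.8% to 17.3% in the other 4.

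The chromosome 2 copy ENSDARG00000104484 held most of the beta 1 level, from 50.04% to 72.1%, and was called nowhere, with 51.8 to 79.2 CPM. The third chromosome 2 copy, ENSDARG00000022689, was at 5.73 and 6.06, 15.4 and 13.7, and 12.4 and 7.82 CPM, and rose by 1.42 ± 0.23 in control against wild-type (adjusted p = 1.09e-06). In mutant against wild-type it was 0.87 ± 0.38 (adjusted p = 0.137), called only without mutant replicate 2 (1.16).

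**Figure D4:**
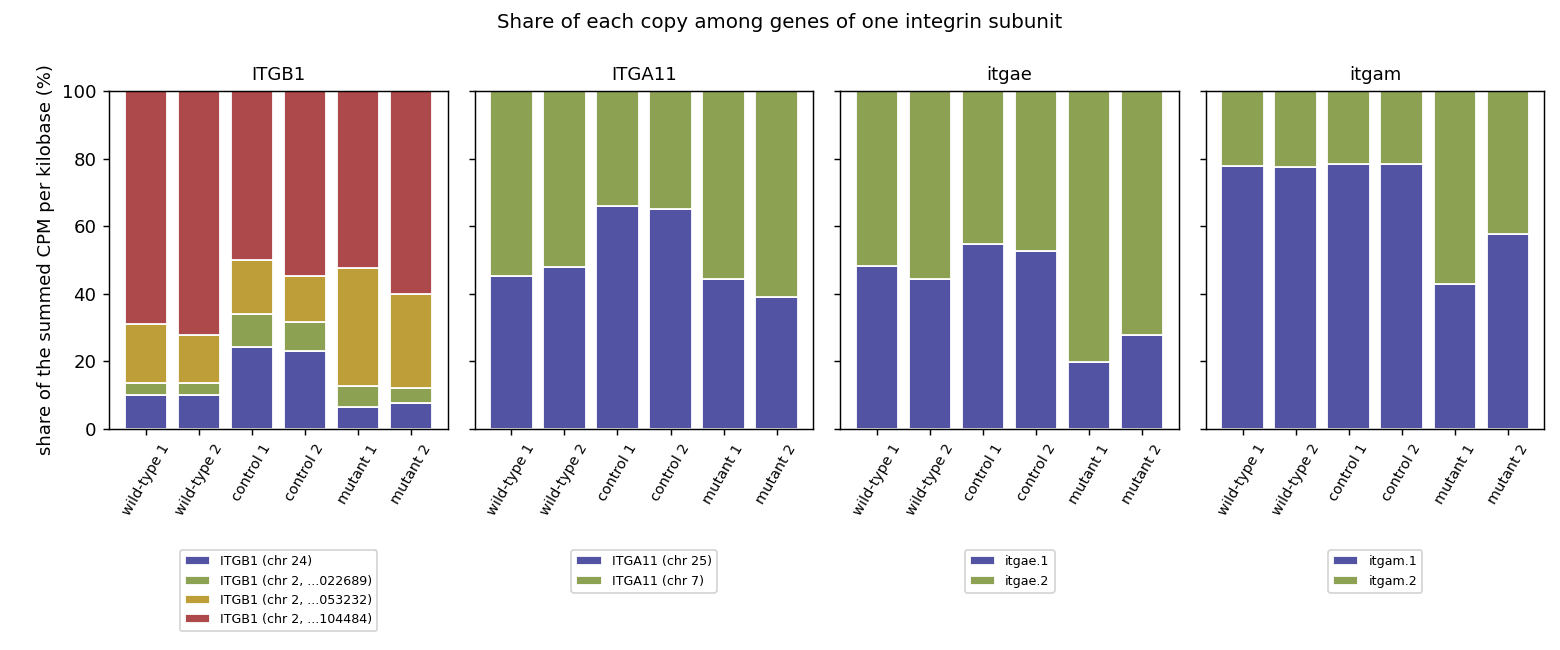
Share of each copy in the summed CPM per kilobase of 4 subunits with several copies, for each library. The chromosome 24 share of ITGB1 is 24.3% and 23.1% in control melanoma, and the itgae.1 share is 19.7% and 27.9% in mutant libraries against 44.3% to 54.8% in the other 4.

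Leukocyte chains fell in each melanoma group against wild-type. Of 6 chains, 4 fell in control and 4 in mutant melanoma against wild-type, itgae.1, itgae.2 and itgb2 in both, and the medians were -1.33 and -1.62 on the log2 scale. In both comparisons 66.7% were called, against 31.9% and 19.3% of all genes. Beta 2 is the partner of the alpha chains that only leukocytes carry, and itgb2 (ENSDARG00000016939) was at 123 and 133 CPM in wild-type, 50.3 and 44.2 in control and 29.5 and 26.3 in mutant libraries. All 3 groups were separate. It fell by 1.32 (SE 0.09, adjusted p = 1.65e-17) in control melanoma against wild-type. In mutant melanoma it also fell, with a log2 fold change of -2.10 (SE 0.13, adjusted p = 9.52e-05). Mutant against control it was -0.72 ± 0.18 (adjusted p = 0.0248), under the minimum fold.

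Alpha E and beta 7 form in mammals the receptor by which T cells of epithelia hold E-cadherin. The neighbouring copies itgae.1 (ENSDARG00000098012) and itgae.2 (ENSDARG00000057787) lie 17177635 to 17213723 on chromosome 15 (GRCz11) and parted in mutant melanoma. For itgae.1 the levels were 60.7 and 55.0 CPM in wild-type, 21.2 and 16.8 in control and 4.01 and 7.82 in mutant libraries. It fell by 1.49 (SE 0.13, adjusted p = 4.89e-14) in control and by 3.25 (SE 0.29, adjusted p = 3.89e-04) in mutant melanoma against wild-type, the largest fall of a member in that comparison. The fall of 1.67 (SE 0.40) in mutant against control (adjusted p = 0.0192) was not called without control replicate 1 (-1.48, adjusted p = 0.227), without control replicate 2 (-1.82, adjusted p = 0.0558) or with no filter on low counts (adjusted p = 0.0675).

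For itgae.2 the levels were 76.3 and 81.3, 20.6 and 17.8, and 19.2 and 23.7 CPM, so both melanoma groups were low and overlapped. It fell by 1.92 (SE 0.12, adjusted p = 2.14e-19) and by 1.80 (SE 0.16, adjusted p = 4.16e-04) against wild-type. Beta 7 (itgb7, ENSDARG00000044318) was at 53.1 and 56.4 CPM in wild-type, 23.4 and 16.3 in control and 36.7 and 28.7 in mutant libraries. It fell by 1.35 (SE 0.13, adjusted p = 3.12e-12) in control, and in mutant melanoma it was -0.65 ± 0.17 against wild-type (adjusted p = 0.0281), under the minimum fold.

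Alpha M pairs with beta 2 on myeloid cells in mammals. The copy itgam.1 (ENSDARG00000002956) was at 61.4 and 59.8 CPM in wild-type, 41.7 and 39.0 in control and 19.8 and 22.6 in mutant libraries, and fell by 1.44 (SE 0.16, adjusted p = 0.00102) in mutant against wild-type. Its neighbour itgam.2 was not called in any comparison, with 6.34 to 15.6 CPM, although in mutant against control it was 1.00 ± 0.39 (adjusted p = 0.111) and was called higher without mutant replicate 2 (1.28, adjusted p = 8.99e-04). Its share of the alpha M level was 57.0% and 42.4% in mutant libraries against 21.5% to 22.6% in the other 4.

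The sum of the leukocyte markers was likewise highest in the wild-type libraries. Over 27 genes they summed to 3479 to 3521 CPM in wild-type, 1222 to 1258 in control and 924 to 1004 in mutant libraries. Against wild-type, 12 of 27 fell and 2 rose in control, and 15 of the 26 tested fell and 1 rose in mutant melanoma. None was at 0 in both libraries of a group. Of the 25 tested in mutant against control 3 fell and 1 rose. Called in either direction were 51.9%, 61.5% and 16% in these comparisons, against 31.9%, 19.3% and 12.5% of all genes. PTPRC, the pan-leukocyte marker CD45, was at 190 and 202, 54.9 and 56.3, and 54.4 and 76.7 CPM, its melanoma libraries overlapping. The part of leukocyte content in the fall of the leukocyte chains was not tested.

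ITGBL1 encodes a secreted protein with repeats like those of beta chains but no transmembrane part. ITGBL1 (ENSDARG00000040985) was at 7.33 and 4.70 CPM in wild-type, 42.8 and 49.7 in control and 11.8 and 10.4 in mutant libraries, control being far above the others. It rose by 3.05 ± 0.17 in control against wild-type (adjusted p = 6.67e-21), the largest rise of a member in that comparison, and fell by 2.01 (SE 0.22, adjusted p = 4.16e-04) in mutant against control. Mutant against wild-type it was 0.97 ± 0.37 (adjusted p = 0.101), called only without mutant replicate 2 (1.05).

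Members with few counts closed the list. The copies itga6l, with at most 5 counts in a library, and itga2.1, with at most 12, passed the filter in no comparison, and itga2.3 passed in 2 comparisons with no call. For itga6l and itga2.1 a difference between groups was not detectable at this depth. For itga2.3 mutant against wild-type was called lower without mutant replicate 2 (adjusted p = 0.0154), where the remaining mutant library had no count and the fitted fold is no bound.

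The collagens, ligands of the collagen receptors, were called higher in both melanomas. All 18 collagen genes of the list rose in control and 14 in mutant melanoma against wild-type, and 14 fell in mutant against control, with medians of 3.39, 1.62 and -1.53 on the log2 scale. These are 100%, 77.8% and 77.8% called, against 31.9%, 19.3% and 12.5% of all genes. The type I collagen genes are also in the list of fibroblast and scale markers. COL1A2, a chain of the main collagen of skin, was at 1433 and 1261 CPM in wild-type, 19170.2 and 19899.5 in control and 3879.8 and 3744 in mutant libraries. It rose by 3.97 ± 0.04 in control (adjusted p = 2.93e-52) and by 1.58 ± 0.08 in mutant melanoma (adjusted p = 4.23e-05) and fell by 2.32 (SE 0.07, adjusted p = 2.53e-07) between the melanomas. ITGA10 had the same order of groups and both copies of ITGA11 were also highest in control, while ITGA2 was highest in mutant melanoma.

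Glycoproteins read by the RGD and alpha 9 receptors were also called mostly higher in control melanoma. Of the genes tested in each comparison, 24 of 27 rose in control and 8 of 21 in mutant melanoma against wild-type, and 17 of 27 fell in mutant against control, with medians of 2.47, 0.92 and -1.32. This makes 88.9%, 38.1% and 63.0% called, against 31.9%, 19.3% and 12.5% of all genes. Among the 17 that fell were fga, FGB and FGG, which code for fibrinogen chains, and both VTN copies. These 5 had no count in the mutant libraries and 13 to 213 counts in the control libraries, so their fitted folds are no bound. The same 5 are among the 24 that rose in control, and which cells their transcripts came from was not tested. The fibronectin copies differed from each other. FN1 (ENSDARG00000006526) was at 80.1 and 75.1, 259 and 283, and 117 and 110.03 CPM, whereas FN1 (ENSDARG00000019815) was at 139 and 137, 257 and 276, and 309.5 and 296 CPM, its mutant libraries being the highest although mutant against control was 0.22 ± 0.09 (adjusted p = 0.14). The second copy rose by 1.22 ± 0.09 in mutant against wild-type (adjusted p = 1.70e-04). POSTN (ENSDARG00000104267), which codes for periostin, an alpha V ligand, rose by 2.32 ± 0.05 in control (adjusted p = 8.05e-40) and fell by 1.16 (SE 0.08, adjusted p = 3.98e-05) in mutant against control melanoma, so it was highest in control melanoma, unlike ITGB8 and ITGB3 on chromosome 3.

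Laminin chains, the ligands of the alpha 3 and alpha 6 receptors, were called in both melanomas, mostly higher. Of 14 chains, 10 rose and 1 fell in control, 7 rose and 1 fell in mutant melanoma against wild-type, and 2 fell in mutant against control, with medians of 1.65, 1.42 and 0.0020. Called were 78.6%, 57.1% and 14.3% of them, against 31.9%, 19.3% and 12.5% of all genes. The share in mutant against control was thus near that of all genes. LAMB1 (ENSDARG00000045524) was at 38.6 and 37.3 CPM in wild-type, 166 and 177 in control and 41.7 and 48.1 in mutant libraries. This copy fell by 1.90 (SE 0.13, adjusted p = 4.31e-05) between the melanomas. The other LAMB1 copy (ENSDARG00000101209) did not, at 69.7 and 68.0 CPM in control and 70.4 and 64.9 in mutant libraries. Its change in mutant against control was 0.01 ± 0.13 (adjusted p = 0.959), and it was called higher against wild-type in both melanomas. LAMA5, a chain of epidermal basement membrane in mammals, was at 84.7 and 78.3, 114 and 105, and 178 and 180.4 CPM, and rose by 1.22 ± 0.10 in mutant against wild-type (adjusted p = 3.24e-04).

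Among ligands on cell surfaces 3 of 7 rose in control melanoma, 1 of 7 fell in mutant melanoma against wild-type and 2 of 6 fell in mutant against control, with medians of 0.52, 0.0032 and -0.78. The shares called were 42.9%, 14.3% and 33.3% against 31.9%, 19.3% and 12.5% of all genes. The alpha 4 and alpha 9 ligand vcam1b was at 5.83 and 3.97, 17.4 and 19.0, and 4.01 and 2.61 CPM, in the same order of groups as ITGA9. It rose by 2.00 ± 0.23 in control against wild-type (adjusted p = 3.09e-10) and fell by 2.39 (SE 0.39, adjusted p = 0.00317) in mutant against control. The leukocyte ligand icam3 fell by 1.67 (SE 0.12, adjusted p = 1.47e-04) in mutant against wild-type.

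Adaptors tie integrin tails to actin or to signalling. Of 42 tested in control against wild-type 12 rose and 4 fell, of 40 in mutant against wild-type 2 rose and 6 fell, and of 41 in mutant against control 1 rose and 7 fell, with medians of 0.52, -0.11 and -0.38. Among the 4 that fell in control was itgb3bp, listed by its name as a binding protein. It had 12 and 11 counts in wild-type and 0 in both control libraries, so its fitted fold is no bound. The shares called were 38.1%, 20% and 19.5% against 31.9%, 19.3% and 12.5% of all genes, so in mutant against wild-type the share was near that of all genes. The 1 that rose in the last comparison was ACTN1, an actin crosslinker, by 1.15 ± 0.13 (adjusted p = 5.26e-04), at 128 and 115 CPM in mutant against 53.2 and 59.5 CPM in control libraries. FERMT3, the kindlin of blood cells, fell by 2.01 (SE 0.26, adjusted p = 0.00197) in mutant melanoma (ENSDARG00000079267) and its second copy (ENSDARG00000030938) by 1.56 (SE 0.16, adjusted p = 7.13e-04), both against wild-type, as itgb2 did. KANK1 (ENSDARG00000060584), which links talin to microtubules, rose by 1.51 ± 0.17 in control against wild-type (adjusted p = 7.88e-11). It fell by 2.85 (SE 0.40, adjusted p = 0.00156) in mutant against control, with 26 and 7 counts in the mutant libraries. The other KANK1 copy (ENSDARG00000060102), at 42.6 to 62.0 CPM, was called in no comparison. It was -0.24 ± 0.10 in control against wild-type and 0.10 ± 0.17 in mutant against control. TNS1, a tensin that binds beta tails, rose by 1.65 ± 0.09 in control (adjusted p = 1.08e-21) and by 1.02 ± 0.12 in mutant melanoma (adjusted p = 0.00148) against wild-type.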

How the data were processed

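Raw counts per gene, deposited for each library, were made by the authors with Trimmomatic, STAR and featureCounts on GRCz11 from paired reads of a stranded total RNA kit. Annotation release, strand setting and the treatment of shared reads are not given in the sources used here. The members, gene lists and tests were chosen with earlier results of these data known. Genes past filterByExpr (minimum count 10, minimum total 15) were fitted with edgeR 4.0.16 (glmQLFit, glmQLFTest, TMM scaling, R 4.3.3), with the 4 libraries of each comparison alone and Benjamini-Hochberg adjustment over all genes tested. SE is the log2 fold change divided by the square root of F. CPM used TMM over all 6 libraries, so its ratios can differ slightly from the fitted fold changes. Named were members called in any comparison, the 3 most abundant, those the study names and, from each ligand or adaptor list, some genes of low adjusted p. Not every gene of lowest adjusted p was named, and the adaptors PTK2B (ENSDARG00000022841) and tns2a were left out. Other members, list genes and markers were named after their values were seen. Among them were ITGB5, ITGB6, the second ITGB3, itga2b, itga2.1, itga2.3, itga3a, itga6l, itgam.2, DCT and PTPRC. From the lists they included FN1 (ENSDARG00000006526), FERMT3 (ENSDARG00000079267), fga, FGB, FGG, VTN, itgb3bp and the other copies of LAMB1 and KANK1. Human-symbol copies were not given zebrafish a or b names. The script was tested on simulated data. Alternatives were DESeq2 1.42.0, its size factors in edgeR, other filters and library sizes, all libraries in one fit, a replicate block, no minimum fold and leaving out each library. Sequences were not used here.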

Additional observations from a re-analysis of the deposited data

Results flagged for a closer look

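For 3 members the changes of control and of mutant melanoma against wild-type melanophores had opposite signs and the melanomas differed by the direct test, edgeR's quasi-likelihood test of mutant against control. The log2 fold change in that test was -3.00 for ITGA11 on chromosome 25, -2.27 for ITGA9 and -1.48 for ITGB1 on chromosome 24. For each of them the change of mutant melanoma against wild-type was itself not called, and for ITGA11 on chromosome 25 it was -0.13 and turned positive without wild-type replicate 2 (0.07) or without mutant replicate 2 (0.16). Groups of 2 libraries allow no check for a single library far from the rest.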

How the results depend on the processing

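No called change of a member reversed under any alternative. The sign of 12 uncalled changes did. In control against wild-type ITGB6 was -0.025 with DESeq2, -0.045 with no filter and -0.054 with all 6 libraries in one fit, ITGB1 as ENSDARG00000053232 was -0.019, -0.040 and -0.048 and ITGA3 was -0.044, -0.063 and -0.073. With 1 library left out, changes in control against wild-type spanned -0.39 to 0.79 for ITGB3 on chromosome 12, -0.057 to 0.11 for ITGB6, -0.065 to 0.12 for ENSDARG00000053232, -0.16 to 1.22 for itga2.3, -0.094 to 0.11 for ITGA3 and -0.096 to 0.022 for itga6b. In mutant against wild-type they spanned -1.32 to 0.40 for ITGB3 on chromosome 12, -0.12 to 0.077 for ENSDARG00000104484, -0.51 to 0.16 for ITGA11 on chromosome 25 and -0.051 to 0.30 for ITGA11 on chromosome 7. In mutant against control they spanned -1.57 to 0.23 for ITGB3 on chromosome 12 and -0.088 to 0.85 for ITGA6. With no minimum fold change, 8 members were lower in control against wild-type, 9 were higher in mutant against wild-type, and 9 were higher and 12 lower in mutant against control. The shares of all genes in this and the other alternatives were not computed. With 1 library left out, the members called in control against wild-type were 11 to 14 higher and 4 lower, in mutant against wild-type 4 to 9 higher and 4 to 6 lower, and in mutant against control 3 to 5 higher and 5 to 10 lower. Of 36 calls of members, 26 were kept in every setting and 10 were lost in at least 1, and 15 of 61 uncalled values gained a call in at least 1. Deviations of same-numbered libraries correlated at -0.01, 0.0035 and 0.0089 over 19097 genes, so no shared deviation was seen. With 2 libraries a group this cannot show whether libraries were prepared in pairs. The fit with the replicate block left the calls at 12 higher and 4 lower, 5 and 4, and 4 and 7. Without division by gene length the class shares in wild-type, control and mutant libraries were 20.7%, 23.7% and 30.2% for RGD receptors, 1.78%, 4.16% and 1.97% for alpha 4 and 9, 5.51%, 7.37% and 6.003% for beta 1, 4.43%, 9.62% and 7.07% for collagen receptors, 52.5%, 47.4% and 50.1% for laminin receptors, 14.8%, 5.93% and 4.23% for leukocyte chains and 0.229%, 1.80% and 0.386% for ITGBL1. Without ITGBL1 the RGD share was 21.8% in wild-type and 26.8% in control, and in control beta 1 took 13.1%, collagen receptors 10.46% and laminin receptors 35.2%. Longer genes weigh more without that division. Members with few counts, such as ITGA6 and ITGB8, are limited by depth.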
